A study of Mus musculus with 4 samples.

Results

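The nuclear-encoded oxidative phosphorylation genes are those whose proteins build the 5 complexes of the mitochondrial inner membrane that pass electrons to oxygen and make ATP. They were chosen by symbol (Nduf with a, b, c, s or v, Sdh with a to d, Uqcr, Cox with 4 to 8, and Atp5), which gave 90 of the 22609 genes in the count tables. Of the 90, 81 encode subunits and 9 carry a matching symbol without being subunits, such as assembly factors. Gene expression was measured by RNA sequencing of the hippocampus of ovariectomized female mice, 24 h into reperfusion after both common carotid arteries had been closed for 20 min. The 2 GFAP-ARO-KO samples lack Cyp19a1 (aromatase, which makes estrogen from androgens) in cells that express Cre from the Gfap promoter, which the submitters describe as astrocyte-specific. The 2 FLOX-control samples are labelled as the floxed controls, so both groups carry the floxed gene. Both groups had been ovariectomized and made ischemic, so neither is an uninjured or hormone-intact sample, and no age is given for the animals. The question was how loss of astrocyte aromatase changes the response of the hippocampus to global ischemia.

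Complex I takes electrons from NADH and complex II from succinate, and both pass them to ubiquinone. Complex III moves them to cytochrome c, complex IV moves them to oxygen, and complex V, the ATP synthase, uses the proton gradient that complexes I, III and IV build. Neurons depend heavily on this pathway, and mitochondrial failure is a known part of ischemic injury. Many of these genes have processed copies in the mouse genome, which are spliced messages that were copied back into DNA, and a short read from the gene can match such a copy equally well.

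Gene counts totalled 34878375 and 27930696 in the GFAP-ARO-KO libraries and 33495548 and 33235564 in the FLOX-control libraries. Levels are given in CPM, the counts scaled to library size. Where no read was counted, the level could still reach 0.0855 and 0.106 CPM in GFAP-ARO-KO, and 0.0896 and 0.0918 CPM in FLOX-control, taking 3 counts as the limit and covering counting error only. Nothing in the labels says that the samples of a group came from separate animals, so p-values measure the spread between these samples. Cyp19a1 gave 1 and 9 reads in GFAP-ARO-KO and 3 and 2 reads in FLOX-control, too few to check the genotype labels. All 9 microglial markers fell, with a summed level of 241.2 and 235.7 CPM in GFAP-ARO-KO and 434.8 and 485.4 CPM in FLOX-control. Of the excitatory neuron markers, 2 of 6 fell (7923 and 7752 CPM summed in GFAP-ARO-KO, 8599 and 9185 in FLOX-control), of the inhibitory neuron markers 1 of 6 (901.5 and 853.1 CPM in GFAP-ARO-KO, 962.1 and 927.0 in FLOX-control), and of 7 markers of all neurons 2 (5263 and 5765 CPM in GFAP-ARO-KO, 5468 and 5617 in FLOX-control). Of the oligodendrocyte markers 4 of 9 fell (3613 and 3895 CPM in GFAP-ARO-KO, 4389 and 4151 in FLOX-control), and of the astrocyte markers 2 of 9 fell and 1 rose (5149 and 5456 CPM in GFAP-ARO-KO, 6101 and 6437 in FLOX-control). Of the markers of endothelium and pericytes 2 of 9 rose and 1 fell (191.8 and 356.2 CPM in GFAP-ARO-KO, 181.6 and 194.4 in FLOX-control), and of those of choroid plexus 2 of 6 tested rose (53.7 and 70.1 CPM in GFAP-ARO-KO, 42.8 and 41.6 in FLOX-control). The 8 meningeal markers, none of which passed in edgeR's quasi-likelihood test, in DESeq2 or in limma-voom (0 at an unadjusted p under 0.05), summed to 110 and 426.8 CPM in GFAP-ARO-KO, the second library standing apart, and to 100.4 and 145.5 CPM in FLOX-control. The 4 hemoglobin genes listed were at 0 reads in all 4 libraries. Whether their reads were lost because they align at several places was not tested. Alas2, the other red blood cell marker listed, was at 1.82 and 2.45 CPM in GFAP-ARO-KO and 1.67 and 1.32 CPM in FLOX-control, and did not pass. The leukocyte markers, of which neither of the 2 tested passed, summed to 5.95 and 9.68 CPM in GFAP-ARO-KO and 9.89 and 11.7 CPM in FLOX-control. In a whole tissue, fewer cells of a type and less RNA per cell cannot be told apart. The part of these marker differences in the results on the oxidative phosphorylation genes was not tested.

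The spliced sequence of several oxidative phosphorylation genes occurs again elsewhere in the genome, and some of these genes had few or no reads. To show the repeated sequence, 50-base windows that cross an exon junction are printed for 7 genes, of which 5 had low counts and Ndufa12 and Uqcr11 did not, in the sense strand of the message and from the mm9 assembly. Lower case marks the end of the upstream exon and capitals mark the start of the downstream exon. In the genome such a run is interrupted by an intron at the gene itself, so an uninterrupted match lies in a processed copy or another spliced relative.
Ndufs5 (exons 2 and 3): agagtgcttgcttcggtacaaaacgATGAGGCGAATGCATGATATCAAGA
Cox7c (exons 1 and 2): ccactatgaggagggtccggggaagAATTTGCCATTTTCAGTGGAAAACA
Atp5l (exons 1 and 2): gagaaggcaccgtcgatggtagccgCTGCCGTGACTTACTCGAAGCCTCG
Ndufab1 (exons 2 and 3): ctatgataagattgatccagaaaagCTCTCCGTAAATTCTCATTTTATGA
Ndufb4 (exons 1 and 2): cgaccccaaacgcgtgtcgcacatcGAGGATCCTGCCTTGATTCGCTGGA
Ndufa12 (exons 1 and 2): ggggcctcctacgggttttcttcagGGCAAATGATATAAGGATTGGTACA
Uqcr11 (exons 1 and 2): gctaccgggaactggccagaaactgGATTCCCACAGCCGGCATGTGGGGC
The Ndufs5 window matched 1 place, chr16:42955935-42955984 (plus strand), inside the annotated pseudogene BC002163. The Cox7c window matched 2 places, one of them chr11:75413357-75413406 (minus strand) in the pseudogene Gm12338, and the Atp5l window 2 places, one of them chr11:97629401-97629450 (plus strand) in the pseudogene Atp5l2. The Ndufab1 window matched chr7:146845739-146845788 (minus strand) in Gm4459, and the Ndufb4 window 2 places, one of them chr15:73640122-73640171 (minus strand) in Gm3244. The Ndufa12 window matched chr5:130664290-130664339 (plus strand), the pseudogene Gm15920 within Rabgef1, and the Uqcr11 window matched chr1:168361932-168361981 (minus strand) in Gm16418. These matches show where a 50-base read could align without a mismatch, and not where the reads of these libraries were placed.

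Over all 90 genes, 12 (13.3%) had exact matches elsewhere for more than 50% of their junction windows, against 2.6% of the 14047 tested genes of the whole table with such windows. They were Atp5g1, Atp5g2, Atp5h, Atp5l, Cox5b, Cox7c, Ndufa12, Ndufab1, Ndufb4, Ndufs5, Uqcr11 and Uqcrb. Some of them were counted at very low levels for constitutive subunits of abundant complexes. Ndufab1, the mitochondrial acyl carrier protein, averaged 0.68 CPM per kilobase of transcript over the 4 libraries, Cox7c 0.746, Atp5l 1.17 and Atp5g2 0.517. For comparison, Atp5b (the catalytic beta subunit of ATP synthase) averaged 780 CPM per kilobase and Cox4i1 (the ubiquitous complex IV subunit 4) 710. Other genes with many such matches were still counted well, for instance Uqcr11 at 145 and Atp5h at 69.5 CPM per kilobase, so a high share of matches did not always go with a low count, and the part of the matches in the low counts was not tested.

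**Figure D1:**
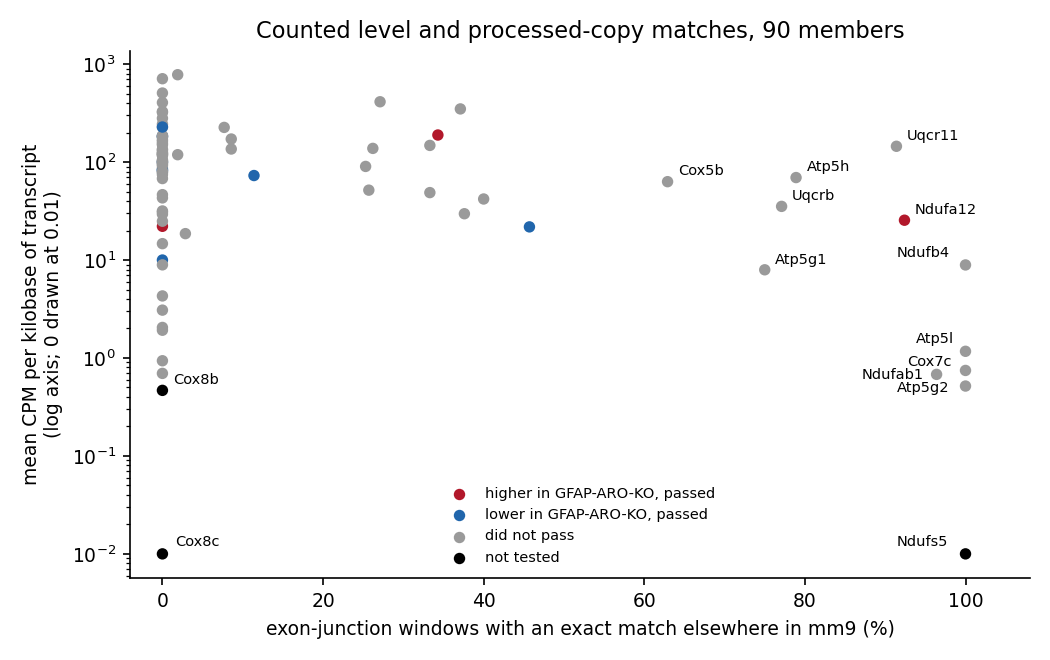
Mean counted level of the 90 genes in CPM per kilobase of transcript (vertical log axis, 0 drawn at the foot) against the percentage of 50-base exon-junction windows with an exact match elsewhere in mm9 (horizontal axis), 1 point per gene, coloured by the outcome of the test. Genes with 100% matched windows range from 0 (Ndufs5) to 8.91 CPM per kilobase (Ndufb4), while most genes with no matched window lie above 10.

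Ndufs5, a complex I accessory subunit, had 0 reads in all 4 libraries. Its pseudogene BC002163 (chr16:42955744-42956064), which matched all 70 junction windows of Ndufs5, is listed in the count tables under its own symbol and did hold reads. It had 1090 and 565 reads (31.0 and 20.0 CPM) in GFAP-ARO-KO, against 1203 and 1291 reads (35.9 and 39.5 CPM) in FLOX-control. The groups did not overlap, but the second GFAP-ARO-KO library was the lowest, and the difference of -0.56 ± 0.20 (log2, SE) did not pass with edgeR's quasi-likelihood test (adjusted p = 0.0923). Without the first GFAP-ARO-KO library the log2 difference was -0.91, and without the second it was -0.27. Each of these fits leaves 1 library in that group. DESeq2's Wald test gave an adjusted p of 0.0393. Of the 31 annotated pseudogenes at matching places, 1 other had a symbol of its own in the tables: Gm10012, a relative of Cox7c, with 3 and 0 reads in GFAP-ARO-KO and 0 reads in both FLOX-control libraries. BC002163 and Gm10012 were named after their values were seen. Reads from Ndufs5 and from BC002163 cannot be told apart where the sequences are the same.

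Of the 90 genes, 87 had enough reads to be tested. Besides Ndufs5, the tissue isoform Cox8c was at 0 reads in all libraries, and Cox8b, the isoform of heart and skeletal muscle, had 6 and 5 reads in GFAP-ARO-KO and 11 and 0 reads in FLOX-control. At an adjusted p under 0.05, 3 of the 87 genes (3.45%) rose in GFAP-ARO-KO and 9 (10.3%) fell, while 75 did not pass. Of all 15011 tested genes 20.4% passed, 9.39% higher and 11.0% lower. The share of oxidative phosphorylation genes that fell was thus close to that of all genes, and the share that rose was smaller. At an unadjusted p under 0.05 there were 27 of the 87 genes, against 36.5% of all tested genes.

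Most of the genes were slightly lower in GFAP-ARO-KO. The log2 difference was below 0 in 63 of 87 genes (72.4%), against 50.1% of all tested genes, with a median of -0.11 and quartiles of -0.26 and 0.022, against a median of -0.001 for all tested genes. Both GFAP-ARO-KO libraries lay below both FLOX-control libraries in 49 genes (56.3%, against 32.8% of all tested genes) and above them in 9, against 32.0% of all tested genes. The summed level of the 90 genes was 11060 and 10830 CPM in GFAP-ARO-KO and 11700 and 11010 CPM in FLOX-control. The first GFAP-ARO-KO library therefore lay above the second FLOX-control library in the sum, and the ratio of the groups was 0.964. These genes were well measured, with a median level of 77.9 CPM and a median SE of 0.105 (log2), against 22.5 CPM and 0.147 for all tested genes.

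**Figure D2:**
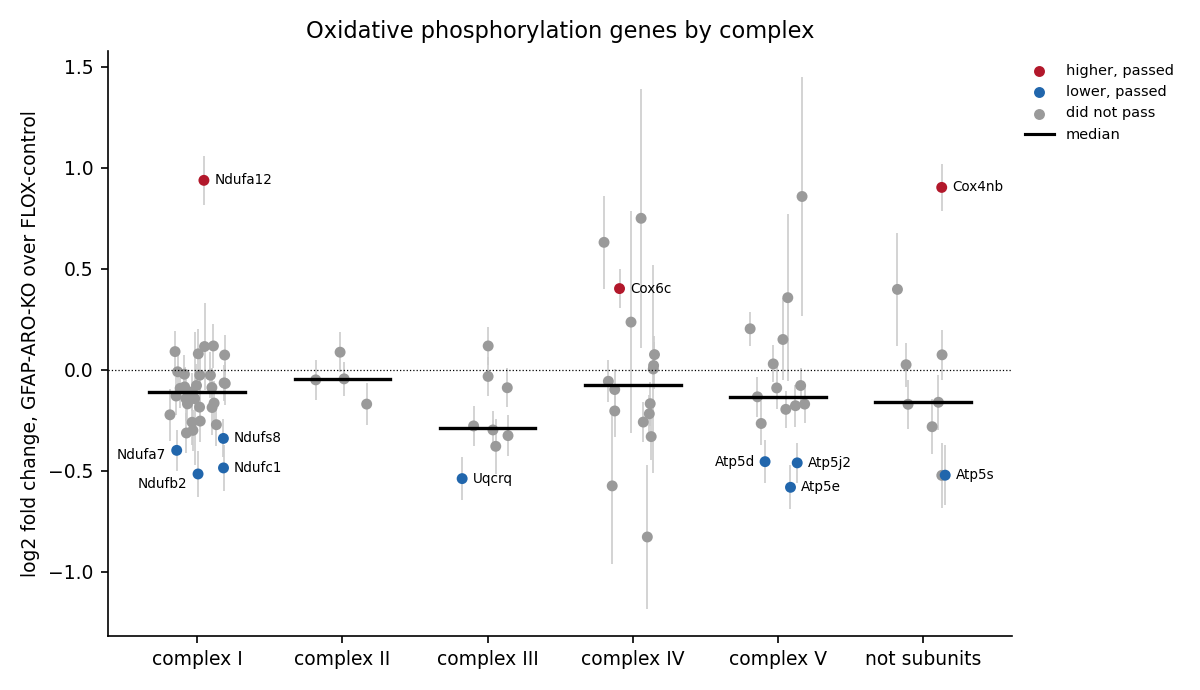
Log2 fold change of GFAP-ARO-KO over FLOX-control (vertical axis) for the 87 tested genes, grouped by complex, with SE as bars and the median of each group as a horizontal line. The medians lie between -0.05 (complex II) and -0.29 (complex III), and of the 3 genes that rose, Ndufa12 and Cox4nb lie above all others of their groups, while Cox6c lies among the complex IV genes that did not pass.

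The count of genes that fell was sensitive to leaving out a FLOX-control library, which leaves 1 library in that group, so that the spread comes from the GFAP-ARO-KO libraries alone and the lone library is assumed to vary like them. It was 0 without FLOX-control 1 and 1 (Atp5e) without FLOX-control 2, while the share of all tested genes called lower was 3.59% and 3.37% in the same fits. The log2 differences of the 9 genes stayed of similar size, between -0.47 and -0.32 without FLOX-control 1 and between -0.69 and -0.36 without FLOX-control 2, against -0.58 to -0.34 with all libraries. Without the second GFAP-ARO-KO library, the one with high meningeal markers, 6 fell and 3 rose. That fit leaves 1 GFAP-ARO-KO library, so its spread comes from the FLOX-control libraries alone. The median log2 difference stayed below 0 in each of these fits, at -0.058 without FLOX-control 1, -0.16 without FLOX-control 2 and -0.09 without the second GFAP-ARO-KO library.

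Complex I supplied 35 tested genes, with a median log2 difference of -0.11. Of these 1 rose (2.86%, against 9.39% of all tested genes) and 4 fell (11.4%, against 11.0%). Its 7 core subunits, which carry the electrons and are conserved from bacteria, had a median of -0.028, and its 28 tested accessory subunits, which surround the core, had a median of -0.14. The level was highest, per kilobase, for the membrane-arm subunit Ndufb9, at 291 CPM per kilobase in GFAP-ARO-KO and 268 in FLOX-control. Summed over complex I the level was 3093 and 2985 CPM in GFAP-ARO-KO and 3342 and 3130 CPM in FLOX-control. The groups did not overlap, but they lay closer to each other than the FLOX-control libraries did. The sums of complex III did not overlap either (1099 and 1103 CPM in GFAP-ARO-KO, 1232 and 1145 CPM in FLOX-control), while those of complexes II, IV and V overlapped.

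Ndufa12, an accessory subunit of the matrix arm (chromosome 10, 93661700 to 93684188, plus strand, mm9), was the only complex I gene that rose. It was at 39.0 and 35.3 CPM in GFAP-ARO-KO, against 19.0 and 19.9 CPM in FLOX-control. Both GFAP-ARO-KO libraries were thus far above both FLOX-control libraries, a 1.91-fold difference (log2 0.94 ± 0.12 SE, adjusted p = 0.00389, edgeR's quasi-likelihood test). Ndufa12 passed in all 14 other settings of the processing, with a largest adjusted p of 0.0316. Of its junction windows 92.4% match the copy on chromosome 5, and 62.6% of its coding windows have an exact match elsewhere in the genome. Its count is thus uncertain where reads can be placed at more than 1 place. Ndufaf2, the assembly factor that is a paralog of Ndufa12 and precedes it in the growing complex, was at 9.17 and 8.97 CPM in GFAP-ARO-KO and at 12.1 and 14.0 CPM in FLOX-control. Its groups did not overlap either, and it lay in the other direction, but it did not pass (log2 -0.52 ± 0.16, adjusted p = 0.0553).

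In complex I, 3 accessory subunits and 1 core subunit fell. Ndufb2, of the membrane arm, was at 31.1 and 30.6 CPM in GFAP-ARO-KO and 46.7 and 41.6 CPM in FLOX-control, 1.43-fold lower (log2 -0.52 ± 0.12, adjusted p = 0.021). Ndufc1, also of the membrane arm, was at 22.4 and 22.9 CPM in GFAP-ARO-KO and 32.0 and 31.6 CPM in FLOX-control, 1.4-fold lower (log2 -0.49 ± 0.12, adjusted p = 0.0251). In both, the spread within each group was smaller than the difference between groups. Exact matches elsewhere covered 45.7% of the junction windows of Ndufc1 and 12.1% of its coding windows, so its count is uncertain there. Ndufa7, of the NADH-oxidizing module, was at 44.5 and 43.5 CPM in GFAP-ARO-KO and 60.1 and 56.0 CPM in FLOX-control, 1.32-fold lower (adjusted p = 0.0336). Ndufs8, the core subunit that holds a pair of iron-sulfur clusters on the path to ubiquinone, was at 71.8 and 70.1 CPM in GFAP-ARO-KO and 91.0 and 88.7 CPM in FLOX-control, 1.27-fold lower (adjusted p = 0.0412). Exons of other genes overlap Ndufb2 (Adck2 on the same strand, Braf and Gm16272 on the other). How reads in the overlap were counted is unknown, since the gene models and strand option used were not stated. The other 30 tested complex I genes did not pass, including the core subunits Ndufv1, which binds NADH, with a log2 difference of -0.089 ± 0.098, and Ndufv2, with one of 0.089 ± 0.101.

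None of the 4 subunits of complex II, which is also succinate dehydrogenase of the citric acid cycle, passed in edgeR's quasi-likelihood test, in DESeq2 or in limma-voom, and 0 had an unadjusted p under 0.05. Their median log2 difference was -0.048. Sdha, the flavoprotein that oxidizes succinate, was at 514.2 and 514.5 CPM in GFAP-ARO-KO and at 536.0 and 525.9 CPM in FLOX-control (log2 -0.046 ± 0.085, adjusted p = 0.735). Sdhb, the iron-sulfur subunit, was at 157.5 and 155.6 CPM in GFAP-ARO-KO and at 155.6 and 139.4 CPM in FLOX-control (log2 0.086 ± 0.099). The membrane anchor Sdhc had a log2 difference of -0.17 ± 0.10 and the anchor Sdhd one of -0.051 ± 0.099. The SE of these 4 values, 0.085 to 0.104, sets the size of difference that could be seen.

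Complex III had the lowest median, -0.29 over 8 tested genes. In it 1 gene fell (12.5%, against 11.0% of all tested genes). In 6 genes (75%, against 32.8%) both GFAP-ARO-KO libraries lay below both FLOX-control libraries. Uqcrq, a small membrane subunit (chromosome 11, 53242455 to 53244329, minus strand, mm9), was at 78.8 and 71.8 CPM in GFAP-ARO-KO, against 114.6 and 104.3 CPM in FLOX-control. The groups were well apart, 1.45-fold lower in GFAP-ARO-KO (log2 -0.54 ± 0.10, adjusted p = 0.0139). Other small subunits lay the same way without passing. Uqcr11 was at 58.1 and 56.0 CPM in GFAP-ARO-KO and 74.6 and 68.7 CPM in FLOX-control (adjusted p = 0.0586), and Uqcr10 at 92.0 and 85.6 CPM in GFAP-ARO-KO and 109.9 and 108.7 CPM in FLOX-control (adjusted p = 0.0635). Uqcrh, the hinge protein that helps dock cytochrome c, was at 108.5 and 114.6 CPM in GFAP-ARO-KO and 141.5 and 129.1 CPM in FLOX-control (adjusted p = 0.0845), and Uqcrb had an adjusted p of 0.0887. The larger subunits with a matching symbol were closer to 0: the core proteins Uqcrc1 and Uqcrc2 had log2 differences of -0.034 ± 0.097 and 0.12 ± 0.10, and the Rieske iron-sulfur protein Uqcrfs1 one of -0.09 ± 0.10. Cyc1, cytochrome c1 of complex III, lacks such a symbol and is counted below with the electron carriers. It was at 189.2 and 176.0 CPM in GFAP-ARO-KO and 236.4 and 207.9 CPM in FLOX-control. Its log2 difference of -0.28 ± 0.10 was like those of the small subunits and did not pass in edgeR's test (adjusted p = 0.0943).

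In complex IV, 1 of 16 tested genes rose and none fell at an adjusted p under 0.05 in edgeR's quasi-likelihood test. That was 6.25% higher, against 9.39% of all tested genes, and 0% lower, against 11.0%. DESeq2 and limma-voom also gave 0 that fell. At an unadjusted p under 0.05, 2 were higher and 3 lower. The median log2 difference was -0.078. Cox6c, a small membrane subunit (chromosome 15, 35861731 to 35868001, minus strand, mm9), was at 104.6 and 111.7 CPM in GFAP-ARO-KO, against 83.8 and 80.0 CPM in FLOX-control. The groups did not overlap, 1.32-fold higher in GFAP-ARO-KO (log2 0.40 ± 0.10, adjusted p = 0.0272). Its log2 difference was 0.44 without FLOX-control 1 and 0.36 without FLOX-control 2, where, with 1 library left in that group, it no longer passed (adjusted p = 0.126 and 0.197). An exon of Vps13b overlaps Cox6c on the opposite strand. Exact matches elsewhere covered 34.3% of the junction windows of Cox6c and 50% of its coding windows. Its count is thus uncertain where reads can be placed at more than 1 place. Cox5a, whose protein binds the catalytic subunit from the matrix side, lay the other way at 81.6 and 84.1 CPM in GFAP-ARO-KO and 113.8 and 94.9 CPM in FLOX-control, without passing (adjusted p = 0.0789).

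Several complex IV positions exist in a ubiquitous and a tissue-restricted isoform, and the ubiquitous one carried most of the counted RNA. Per kilobase, Cox4i1 was at 728 CPM in GFAP-ARO-KO and 692 in FLOX-control, whereas Cox4i2, the form linked to lung and low oxygen, was at 0.957 and 0.916. Cox6a1 was at 405 CPM per kilobase in GFAP-ARO-KO and 422 in FLOX-control, and its heart and muscle form Cox6a2 at 5.22 and 3.38. Cox7a2 was at 141 CPM per kilobase in GFAP-ARO-KO and 169 in FLOX-control, against 2.23 and 3.94 for the muscle form Cox7a1. Cox6b1 (298 and 347 CPM per kilobase in GFAP-ARO-KO and FLOX-control), Cox7b (91.6 and 98.1) and Cox8a (328 and 369) exceeded the testis-enriched forms Cox6b2 (1.57 and 2.28) and Cox7b2 (0.891 and 0.501) and the muscle form Cox8b (0.481 and 0.454) in the same way. In no such pair did either isoform pass the test. The nearest to passing was Cox6a2, at 3.50 and 3.37 CPM in GFAP-ARO-KO and 2.24 and 2.20 CPM in FLOX-control (log2 0.63 ± 0.23, adjusted p = 0.0919). Cox5b, often paired with Cox5a by name although it fills another position, was at 58.6 CPM per kilobase in GFAP-ARO-KO and 67.6 in FLOX-control. Ndufa4, named for complex I and now assigned to complex IV, was at 408 CPM per kilobase in GFAP-ARO-KO and 402 in FLOX-control, and its hypoxia-inducible paralog Ndufa4l2 was at 2.32 and 1.78 (adjusted p = 0.341).

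In complex V, 3 of 15 tested genes fell and none rose in edgeR's quasi-likelihood test, in DESeq2 or in limma-voom. In edgeR's test that was 20% lower, against 11.0% of all tested genes, and 0% higher, against 9.39%. At an unadjusted p under 0.05, 1 (Atp5a1) was higher. The median log2 difference was -0.14. The genes that fell encode small subunits. Atp5e, the epsilon subunit of the central stalk of F1 (chromosome 2, 174286573 to 174289606, minus strand, mm9), was at 62.0 and 62.7 CPM in GFAP-ARO-KO, against 100.4 and 86.5 CPM in FLOX-control. Its GFAP-ARO-KO libraries were nearly equal and both below FLOX-control, a 1.5-fold difference (log2 -0.58 ± 0.11, adjusted p = 0.0124). Atp5d, the delta subunit that sits beside epsilon in that stalk, was at 149.7 and 134.3 CPM in GFAP-ARO-KO and 204.5 and 185.1 CPM in FLOX-control, 1.37-fold lower (log2 -0.46 ± 0.10, adjusted p = 0.0236). Atp5j2, the f subunit of the membrane part, was at 58.1 and 59.1 CPM in GFAP-ARO-KO and 84.1 and 77.3 CPM in FLOX-control, 1.38-fold lower (log2 -0.46 ± 0.10, adjusted p = 0.0198). An exon of Dos overlaps Atp5d on the opposite strand, and no annotated exon overlaps Atp5e or Atp5j2.

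The large F1 subunits did not pass. Atp5b was at 1499 and 1409 CPM in GFAP-ARO-KO and 1544 and 1528 CPM in FLOX-control (log2 -0.079 ± 0.085, adjusted p = 0.534). Atp5a1, the alpha subunit, was at 1358 and 1325 CPM in GFAP-ARO-KO and 1179 and 1154 CPM in FLOX-control (log2 0.20 ± 0.083, adjusted p = 0.124), and Atp5c1, the gamma subunit, had a log2 difference of 0.028 ± 0.092. The 5 F1 genes thus ranged from -0.58 to 0.20. The c subunit, which forms the rotating ring, is encoded by 3 genes for the same mature protein. Atp5g3 was counted at 307 CPM per kilobase in GFAP-ARO-KO and 348 in FLOX-control, against 8.34 and 7.55 for Atp5g1 and 0.659 and 0.375 for Atp5g2, and none of the 3 passed. Exact matches elsewhere covered 0% of the junction windows of Atp5g3, 75% of those of Atp5g1 and 100% of those of Atp5g2, so their order of counted levels need not be the order of their RNA.

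**Figure D3:**
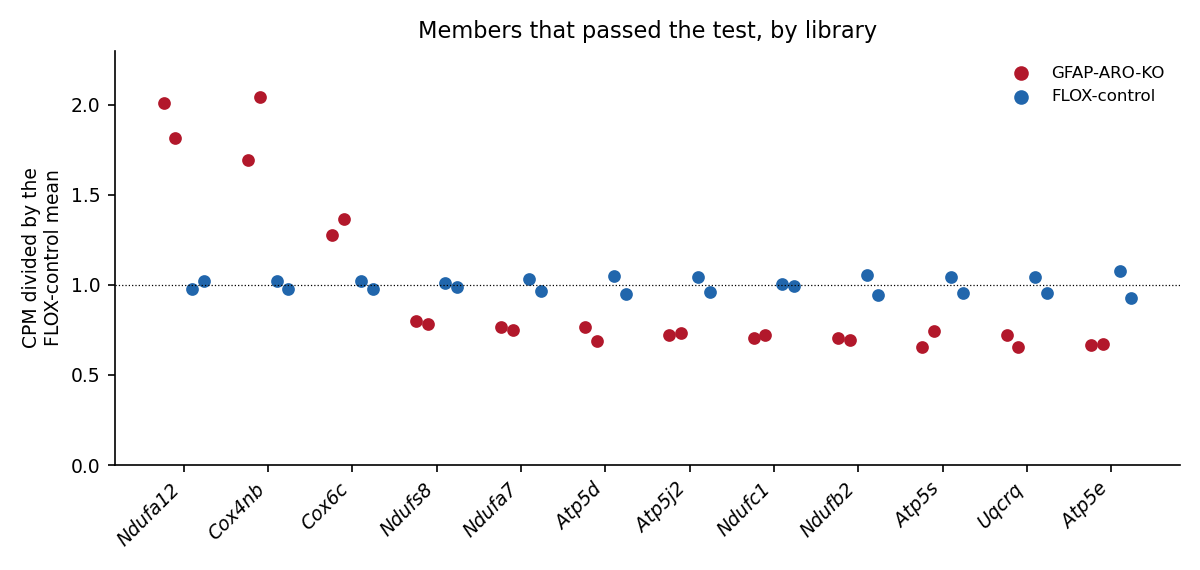
CPM in each library divided by the FLOX-control mean (vertical axis) for the 12 genes that passed the test, GFAP-ARO-KO to the left of FLOX-control within each gene, 1 point per library. In every gene shown the GFAP-ARO-KO points lie on one side of the FLOX-control points, above for Ndufa12, Cox4nb and Cox6c and below for the other 9.

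Among the 9 genes that share a symbol but are not subunits, 1 rose and 1 fell (11.1% each, against 9.39% and 11.0% of all tested genes). Cox4nb (chromosome 8, 123177814 to 123192012, minus strand, mm9) encodes a subunit of the endoplasmic reticulum membrane complex, now called Emc8, and was named for its place beside Cox4i1, from which it is transcribed in the opposite direction. It was at 128.5 and 155.3 CPM in GFAP-ARO-KO, against 77.7 and 74.2 CPM in FLOX-control. The groups were far apart, 1.87-fold higher in GFAP-ARO-KO (log2 0.90 ± 0.12, adjusted p = 0.00399), and Cox4nb passed in all 14 other settings with a largest adjusted p of 0.0278. Its neighbour Cox4i1, which begins at position 123192190, was at 503.5 and 485.4 CPM in GFAP-ARO-KO and 487.5 and 452.1 CPM in FLOX-control, with overlapping groups (log2 0.074 ± 0.091, adjusted p = 0.594). Atp5s, a factor linked to ATP synthase coupling, was at 11.5 and 13.0 CPM in GFAP-ARO-KO and 18.3 and 16.8 CPM in FLOX-control, 1.44-fold lower (log2 -0.52 ± 0.15, adjusted p = 0.0434). The supercomplex factor Cox7a2l was at 55.9 and 56.9 CPM in GFAP-ARO-KO and 59.0 and 52.0 CPM in FLOX-control. Of the 4 complex I assembly factors of the Ndufaf group none passed in edgeR's test, in DESeq2 or in limma-voom (1 at an unadjusted p under 0.05), at a median of -0.22. Without the first GFAP-ARO-KO library Ndufaf2 and Ndufaf3 were called lower.

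Most of these genes have short messages, and the difference was largest in the shortest. The median transcript was 763 bases in the tested oxidative phosphorylation genes and 2764 bases in all tested genes with a length. For transcripts of up to 600 bases the median log2 difference was -0.27 in 27 oxidative phosphorylation genes and -0.22 in all 202 tested genes of that length. Above 600 and up to 1000 bases it was -0.092 in 26 of them and -0.078 in all 830. Above 1000 and up to 1500 bases it was -0.09 in 17 and -0.032 in all 1567, and above 1500 and up to 2500 bases -0.034 in 11 and 0.01 in all 3684. Above 2500 and up to 4000 bases it was -0.14 in 5 and 0.015 in all 4260, so the few longer oxidative phosphorylation genes did not continue the order of the shorter ranges. As a description over genes of the same libraries, Spearman's correlation of length with the log2 difference was 0.34 over the 87 oxidative phosphorylation genes and 0.03 over the 14405 tested genes with a length. The medians of all short genes were thus below 0, as were those of the short oxidative phosphorylation genes. Of the 9 genes that fell, 7 were among the 53 tested oxidative phosphorylation genes with transcripts of at most 1000 bases. Of all 1032 tested genes of that length, 15.3% were called lower.

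**Figure D4:**
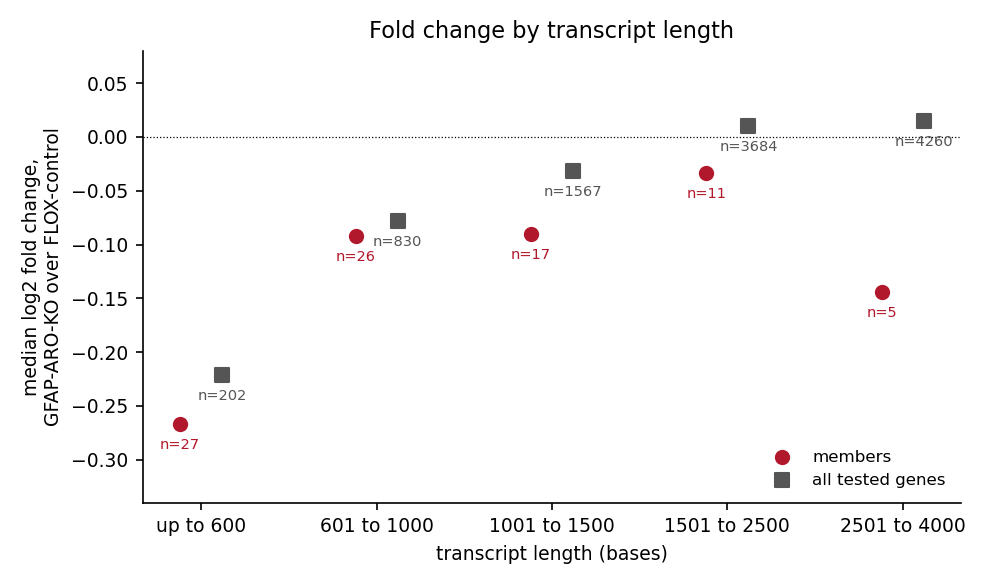
Median log2 fold change of GFAP-ARO-KO over FLOX-control (vertical axis) by transcript length in bases (horizontal axis, 5 ranges), for the oxidative phosphorylation genes (circles) and for all tested genes (squares), with the number of genes beside each point. Both medians are lowest up to 600 bases, at -0.27 and -0.22; the last range holds only 5 oxidative phosphorylation genes, and Cox4nb, longer than 4000 bases, is not drawn.

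With offsets for transcript length and GC content in the fit, an alternative chosen after the data were seen, the median of the oxidative phosphorylation genes was -0.05, and 3 rose (3.45%) and 7 fell (8.05%), against 11.0% and 12.8% of all genes tested in that fit. Under these offsets Ndufa7 (adjusted p = 0.102) and Ndufb2 (adjusted p = 0.0561) no longer passed, while Atp5e (log2 -0.37), Uqcrq (-0.32), Atp5d, Atp5j2, Atp5s, Ndufc1 and Ndufs8 did. As a description over the 87 tested genes, all from the same libraries, Spearman's correlation of the log2 difference with the share of repeated windows was -0.0. Leaving out genes with more than 50% of either kind of window matched elsewhere left 75 tested genes with a median of -0.14, of which 2 rose and 9 fell.

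The upstream 250 bases of 74 of the 90 genes were found in RefSeq (GRCm38.p6 build), and were searched for the core letters bound by nuclear respiratory factors, which are known regulators of this pathway. The NRF1 motif (GCGCA, any base, then GCGC), read on either strand, was in 14 of 74 (18.9%), against 4.23% of 27025 genes with an entry. The ETS motif CCGGAAG, bound by GABPA and other factors of that family, was in 13 (17.6%), against 7.83%. Of the 8 genes that fell and had an entry, 0 held the NRF1 letters and 1, Atp5e, the ETS letters, while among 63 genes that did not pass 13 (20.6%) and 12 (19.0%) did. A match is only a run of letters, and its absence says nothing about binding. The upstream sequence of Atp5e, the gene with the lowest log2 difference among those that fell, is shown with its ETS match in capitals, and that of Ndufa12, the gene with the highest, has neither motif.
Atp5e (chr2:174464102-174464351, minus strand, GRCm38.p6): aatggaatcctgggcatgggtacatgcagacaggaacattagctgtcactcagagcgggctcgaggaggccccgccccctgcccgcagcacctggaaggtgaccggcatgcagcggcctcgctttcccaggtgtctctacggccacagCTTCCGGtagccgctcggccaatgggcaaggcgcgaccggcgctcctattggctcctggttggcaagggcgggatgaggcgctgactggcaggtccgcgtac
Ndufa12 (chr10:94198785-94199034, plus strand, GRCm38.p6): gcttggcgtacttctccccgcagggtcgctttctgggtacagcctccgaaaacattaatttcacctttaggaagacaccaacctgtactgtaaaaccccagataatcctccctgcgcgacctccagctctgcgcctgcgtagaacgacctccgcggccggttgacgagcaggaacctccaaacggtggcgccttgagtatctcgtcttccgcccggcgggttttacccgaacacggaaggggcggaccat

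Of 17 tested genes of mitochondrial biogenesis, which include the factors that bind these motifs, 1 rose (5.88%) and 0 fell in edgeR's quasi-likelihood test. Their median log2 difference was -0.013. For this and the following lists, the shares of all tested genes were 9.39% higher and 11.0% lower. DESeq2 called 1 lower and limma-voom 0, and 2 were lower at an unadjusted p under 0.05. Gabpb1, the partner of GABPA, was at 23.9 and 28.9 CPM in GFAP-ARO-KO, against 16.4 and 16.3 CPM in FLOX-control, 1.61-fold higher (log2 0.69 ± 0.14, adjusted p = 0.0166). Nrf1 had a log2 difference of -0.013 ± 0.147, the coactivator Ppargc1a one of 0.18 ± 0.12, and the mitochondrial DNA packaging factor Tfam one of 0.32 ± 0.11 (adjusted p = 0.0808). Of 29 tested assembly factors, the 4 Ndufaf genes among them, 4 fell (13.8%, against 11.0% of all tested genes) and 0 rose in edgeR's test. In that test 2 were higher at an unadjusted p under 0.05, and the median was -0.028. DESeq2 and limma-voom called 0 higher. Acad9, which helps assemble complex I, was at 30.8 and 25.1 CPM in GFAP-ARO-KO and 48.0 and 46.4 CPM in FLOX-control, 1.68-fold lower (adjusted p = 0.00961). The other assembly factors that fell were Bcs1l (log2 -1.02 ± 0.26), which inserts the Rieske protein into complex III, the copper chaperone Cox17 (-0.46 ± 0.11) and Taco1 (-0.78 ± 0.19), which aids translation of a complex IV subunit.

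Among 17 tested genes of electron carriers and ubiquinone synthesis, 1 rose and 1 fell (5.88% each), at a median of -0.11. Coq7, a hydroxylase of ubiquinone synthesis, was at 38.7 and 36.1 CPM in GFAP-ARO-KO, against 17.9 and 19.0 CPM in FLOX-control, 2.03-fold higher (log2 1.02 ± 0.12, adjusted p = 0.00307). Aifm1, a flavoprotein needed for respiratory chain assembly, was at 22.3 and 16.7 CPM in GFAP-ARO-KO and 32.0 and 32.6 CPM in FLOX-control (log2 -0.72 ± 0.15, adjusted p = 0.0193). Of 20 citric acid cycle genes 0 passed in edgeR's test and in limma-voom, 1 was called lower by DESeq2, and 3 were lower at an unadjusted p under 0.05, at a median of -0.012. Fh1, fumarate hydratase, came closest at 76.1 and 79.2 CPM in GFAP-ARO-KO and 100.8 and 91.1 CPM in FLOX-control (adjusted p = 0.07). Of 26 glycolysis and glucose transport genes 1 rose (3.85%) and 3 fell (11.5%, against 11.0% of all tested genes), at a median of -0.072. Some were counted at very low levels, such as Gapdh at 1.14 and 0.603 CPM in GFAP-ARO-KO and 0.926 and 0.918 CPM in FLOX-control. Matches of these genes elsewhere in the genome are not given here, and their part in this median and these calls was not tested. The glucose transporter Slc2a1 rose (178.0 and 167.8 CPM in GFAP-ARO-KO, 126.7 and 108.9 CPM in FLOX-control, adjusted p = 0.0142), and Pfkl, Eno2 and Slc16a7 fell.

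Of 32 genes of inner membrane carriers, uncoupling and quality control, 4 rose (12.5%, against 9.39% of all tested genes) and 1 fell (3.12%, against 11.0%). Their median was -0.015. Ucp2, an inner membrane carrier of the uncoupling protein family, was at 65.0 and 58.3 CPM in GFAP-ARO-KO, against 38.3 and 32.5 CPM in FLOX-control, 1.74-fold higher (log2 0.80 ± 0.12, adjusted p = 0.00675). Ucp3 also rose, at 3.05 and 2.87 CPM in GFAP-ARO-KO and 1.07 and 1.56 CPM in FLOX-control (adjusted p = 0.0281), as did the aspartate-glutamate carriers Slc25a12 and Slc25a13, while the prohibitin Phb fell (log2 -0.54 ± 0.12).

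The proteins of the mitochondrial ribosome, which translates the subunits encoded in mitochondrial DNA, are like the oxidative phosphorylation genes in that they too are nuclear-encoded and needed in the same organelle. The set was not matched in length, and some of its genes that fell have long transcripts, such as Mrps25 (6073 bases) and Mrpl17 (3848 bases). Of 74 tested genes 13 (17.6%, against 11.0% of all tested genes) fell and 0 rose (against 9.39%) in edgeR's quasi-likelihood test. The median log2 difference was -0.17. The log2 difference was below 0 in 53 (71.6%), against 72.4% of the oxidative phosphorylation genes and 50.1% of all tested genes. Both GFAP-ARO-KO libraries lay below both FLOX-control libraries in 42 (56.8%), against 56.3% and 32.8%. A lean to lower values was thus not particular to the oxidative phosphorylation genes. DESeq2 called 1 higher and limma-voom 0, and 5 were higher at an unadjusted p under 0.05. Mrps6 had the smallest p, at 18.4 and 14.3 CPM in GFAP-ARO-KO and 48.0 and 49.6 CPM in FLOX-control, 2.97-fold lower (log2 -1.57 ± 0.14, adjusted p = 0.00133). The cytoplasmic ribosomal proteins, many of them short, had a median of -0.023, with 7 of 77 higher (9.09%) and 1 lower (1.3%). Several were counted at very low levels, such as Rpl23a at 0.456 and 0.355 CPM in GFAP-ARO-KO and 0.508 and 0.367 CPM in FLOX-control. Matches of this set elsewhere in the genome are not given here, and their part in its counts, median and calls was not tested. Among them Rpl3 was at 29.9 and 27.7 CPM in GFAP-ARO-KO and at 0.687 and 0.734 CPM in FLOX-control (log2 5.33 ± 0.21, adjusted p = 0.00018). That FLOX-control level is very low for a ribosomal protein gene. Rpl29 likewise was at 4.93 and 3.94 CPM in GFAP-ARO-KO and at 0.209 and 0.122 CPM in FLOX-control. Whether the placement of reads has a part in these differences was not tested. Genes encoded in mitochondrial DNA were not analysed here.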

How the data were processed

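The authors deposited raw read counts per gene for 4 libraries (50-base single-end reads of total RNA, per the labels' protocols). Reads were handled with bcl2fastq, TopHat2 2.0.8b and HTSeq on mm9, per the submitters' processing notes; which gene models and strand option HTSeq used was not stated there. Entries of the 5 tally rows without a gene name, 45.17% to 47.3% of all, stayed out of library sizes and tests; most were alignments at several places (35.73% to 37.35% of entries), so reads shared with a genomic copy can be lost.

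Counts were tested with edgeR 4.0.16 in R 4.3.3 (filterByExpr with minimum count 10 and minimum total 15, TMM factors, glmQLFit with robust estimation and legacy=FALSE, glmQLFTest), with Benjamini-Hochberg adjustment over all 15011 tested genes and a threshold of 0.05. SE was taken as the size of the log2 fold change over the root of its F statistic. Transcripts (the shortest with the longest coding sequence) came from GENCODE vM1 on NCBIM37, the assembly of mm9. Windows of 50 bases were searched in the genome on both strands for exact matches, and a junction window had at least 8 bases in each exon.

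Text names, per complex, the 3 genes with the smallest p and the highest level per kilobase, isoform positions, passing changes of at least 1.5-fold, untested genes, and the smallest p of each list. Further names were picked with values in view. The genes and lists were chosen with earlier results of these data known. In simulated counts with 200 changed genes among 15011, the steps recovered 36% of the changes set at 1.5-fold, 66% of those at 2-fold, and 98% of those at 4-fold and at 8-fold. Alternatives were RLE and upper-quartile scaling, other filters, legacy and non-robust estimation, DESeq2 1.42.0, limma-voom (limma 3.58.1), a replicate block, each library left out, and, chosen after seeing the data, offsets for length and GC content. Replicate numbers did not pair the samples: deviations of same-numbered libraries had a correlation of -0.0057 over 15011 genes. Libraries of a group differed beyond counting noise over these genes (chi-square over its degrees of freedom 8.23 in GFAP-ARO-KO and 19.3 in FLOX-control).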

Additional observations from a re-analysis of the deposited data

How the results depend on the processing

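Ndufa12 and Cox4nb rose in all 14 alternatives, and Cox6c in 12. With each library left out in turn, the number of all genes called ranged from 813 to 4821 (3061 with all libraries), of oxidative phosphorylation genes called lower from 0 to 13, of those called higher from 2 to 3, and their median log2 difference from -0.16 to -0.058. Each fit with a library left out holds 1 library in a group, so its calls rest on the spread of the other group alone. Across the scalings, filters, estimations, tests and block listed 7 to 9 fell, 3 rose and the median ran from -0.127 to -0.087. Offsets for length and GC content moved the median to -0.05. Upper-quartile scaling, which moved the median of all genes to 0.024, and the replicate block each left 7 that fell, without Atp5s and Ndufs8. With the replicate block 3194 genes were called and the median was -0.11; the labels give no reason to pair the samples. Directions reversed only in genes that did not pass: Cox4i2 with limma-voom (-0.10), Cox6a1 with the offsets (0.079), and with a library left out Cox4i2 (-0.72 to 0.57), Cox6a1 (-0.14 to 0.037), Cox7b2 (-0.074 to 1.37), Ndufa4 (-0.10 to 0.16) and Cox7a2l (-0.066 to 0.12); none of the reversed values had an adjusted p under 0.05. Ndufa7 passed in 10 and Ndufs8 in 8 of the 14. Over the other named genes, chosen by the stated rule, and BC002163, of 542 values of single genes under an alternative, 506 kept their direction and side of the threshold, 20 no longer passed, 6 newly passed and 10 reversed. With 2 libraries a group, differences near 1.5-fold were often missed in simulation. It changed 200 of 15011 genes, drawn at all levels, whereas 3061 were called in the data. Its shares therefore do not give the share missed among the oxidative phosphorylation genes. Genes counted at a few reads, such as Cox7c and Atp5g2, allow no statement on their direction.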
